A study of Arabidopsis thaliana with 30 samples.

Results

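The comparison concerned the first part of cold imbibition in Arabidopsis seed, from dry seed (0 h) to 12 h of stratification (12 h S), and used 6 of the 30 RNA-seq libraries of a germination time course with 10 time points. Both groups were wild-type Col-0 seed from a single batch of plants, with 3 biological replicates each. The 0 h seed had been ripened dry in the dark, for 14 days by one label and 15 by another, and was snap frozen before plating. The 12 h S seed had in addition been surface sterilised, plated on MS medium with 3% sucrose and kept for 12 h at 4 °C in the dark. Water uptake, cold, sterilisation and sucrose were all added between both time points, so their parts cannot be told apart. Freshly harvested seed (H) and seed after 48 h of stratification (48 h S), each with 3 libraries, are given where they show how a level stood before and after. The libraries held whole seed, so fewer cells of a type and less RNA per cell cannot be told apart.

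A dry Arabidopsis seed holds an embryo and a single endosperm layer within a dead seed coat, together with messenger RNA stored since maturation. Imbibition brings water back and restarts respiration, transcription and turnover of that RNA, while stratification in the cold is the usual laboratory means of releasing dormancy. Dormancy and germination are set by opposing hormones: abscisic acid (ABA) holds the seed back and gibberellin drives it on. In vegetative tissue cold is known for inducing the CBF transcription factors and the COR genes they control.

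Total counts were 28.0 to 41.5 M reads at 0 h and 45.3 to 61.1 M at 12 h S. Between 14072 and 14996 genes per library reached a level of 1 CPM (reads scaled to a common library total), and 23.8% to 26.1% of the reads fell on the top 10 genes. Markers matched the labelled tissue, as 9 seed storage protein genes held 119000 CPM in summed level at 0 h and 85000 at 12 h S. Plastid genes took 0.0423% ± 0.0058 of the reads at 0 h and 0.0278% ± 0.0058 at 12 h S (SD, n = 3; exact two-sided permutation p = 0.1, the smallest that 3 against 3 libraries allow). Replicates 1 and 2 at 0 h differed from replicate 3 in part of their transcripts, and for those given here replicate 3 lay nearer to H. The 9 leaf photosynthesis markers summed to 51.6 CPM in 0 h replicate 3 and up to 110 CPM in the other replicates at 0 h, against 46.6 to 52.1 CPM at H and 28.6 to 41.6 CPM at 12 h S. The hemoglobin gene HB1 and the expansin gene EXPA10 were likewise lowest in replicate 3 among the 0 h libraries, with values given later. Their means were 1.69 and 1.76 CPM at H and 955 and 1540 CPM at 48 h S. A fit with 0 h replicates 1 and 2 left out is therefore quoted where it ended the call of a gene described or moved a list's count by over 1.5 times.

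Of 38217 features, 18119 had enough reads to be tested and 20098 did not. At an adjusted p below 0.01 (edgeR quasi-likelihood test), 6334 features (35.0%) were higher at 12 h S and 5957 (32.9%) were lower, so that 67.8% were called and 5828 features were not. The log2 fold change was above 1 for 3429 of those that rose (18.9% of all tested) and below -1 for 2962 of those that fell (16.3%). Against a 2-fold change as the null, 2184 rose and 1514 fell. The 3 libraries at 12 h S all lay above those at 0 h in CPM for 46.6% of the features tested and all below for 30.9%. The median log2 fold change over all features was 0.01 after TMM scaling and 0.20 with library size alone, where 7287 rose and 4597 fell, so that the share of rises among the calls went from 51.5% to 61.3%. Levels below are CPM and log2 fold changes are after TMM. List counts below stand beside 35.0% higher and 32.9% lower over all features tested. With 0 h replicates 1 and 2 left out, 4735 features rose and 4473 fell.

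The 10 largest rises were taken among genes with at least 10 CPM at 12 h S and no overlap between the libraries of both groups. Their call also had to hold without each library in turn and in a fit of all 30 libraries. They were led by PHI-1 (AT1G35140), a member of the phosphate-responsive EXORDIUM family. It stood at 0.588, 0.5 and 0.386 CPM at 0 h and at 83.2, 110 and 121 CPM at 12 h S (log2 fold change 7.56 ± SE 0.18, adjusted p = 5.2e-12). No library of either group came near the other. CAF1a, a catalytic subunit of the CCR4-NOT complex that removes poly(A) tails, rose from 0.654, 1.36 and 0.699 CPM to 134, 119 and 143 CPM (log2 fold change 7.04 ± 0.18, adjusted p = 6.4e-12). The transcription factor gene bZIP2 rose from 2.52, 2.61 and 1.23 CPM to 289, 301 and 306 CPM (7.0 ± 0.17, adjusted p = 5.2e-12). All of these libraries at 12 h S lay more than 1 order of magnitude above those at 0 h.

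OST1, the SnRK2 protein kinase of ABA signalling, rose from 1.93, 2.93 and 1.93 CPM to 223, 221 and 202 CPM (6.40 ± 0.13, adjusted p = 2.5e-12). Its libraries agreed closely within each group. GDU1, which affects amino acid export, had at most 3 reads in each library at 0 h and 11.9 to 12.6 CPM at 12 h S. The others among the 10 were RBL7 (7.42), the SAUR-like gene AT1G17345 (6.70), the co-chaperone gene BAG2 (6.57), AT2G38240 (6.51), which encodes a 2-oxoglutarate-dependent oxygenase, and the uncharacterised AT4G27654 (6.39). RBL7 overlaps AT4G23060 and the libraries were unstranded, so its reads could belong to either. All 10 had a lower mean at 48 h S than at 12 h S, from 0.901 CPM for BAG2 to 81.2 CPM for bZIP2.

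The 10 largest falls were chosen in the same way, with at least 10 CPM at 0 h. They were led by AT3G30460, a RING/U-box gene, and LTP4, a lipid transfer protein gene. AT3G30460 stood at 15.5, 15.5 and 14.8 CPM at 0 h and at 0.536, 0.309 and 0.344 CPM at 12 h S (log2 fold change -5.45 ± 0.15, adjusted p = 1.1e-11). LTP4 went from 19.5, 19.0 and 20.5 CPM to 0.734, 0.640 and 0.278 CPM (-5.39 ± 0.19, adjusted p = 8.8e-11). The groups were far apart for both genes. RSH3, a RelA/SpoT homologue of the enzymes that make and degrade the alarmone ppGpp, went from 117, 105 and 102 CPM to 9.40, 7.32 and 8.02 CPM (-3.89 ± 0.11), although it overlaps AT1G54140, and its homologue RSH2 fell by 3.51 on the log2 scale. BAG6 fell by 3.97, AIRP2, a RING E3 ligase of ABA responses, by 4.02, AT5G63350 by 4.01, the papain-like protease gene AT4G16190 by 3.95 and the F-box gene AT5G04010 by 3.94.

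**Figure D1:**
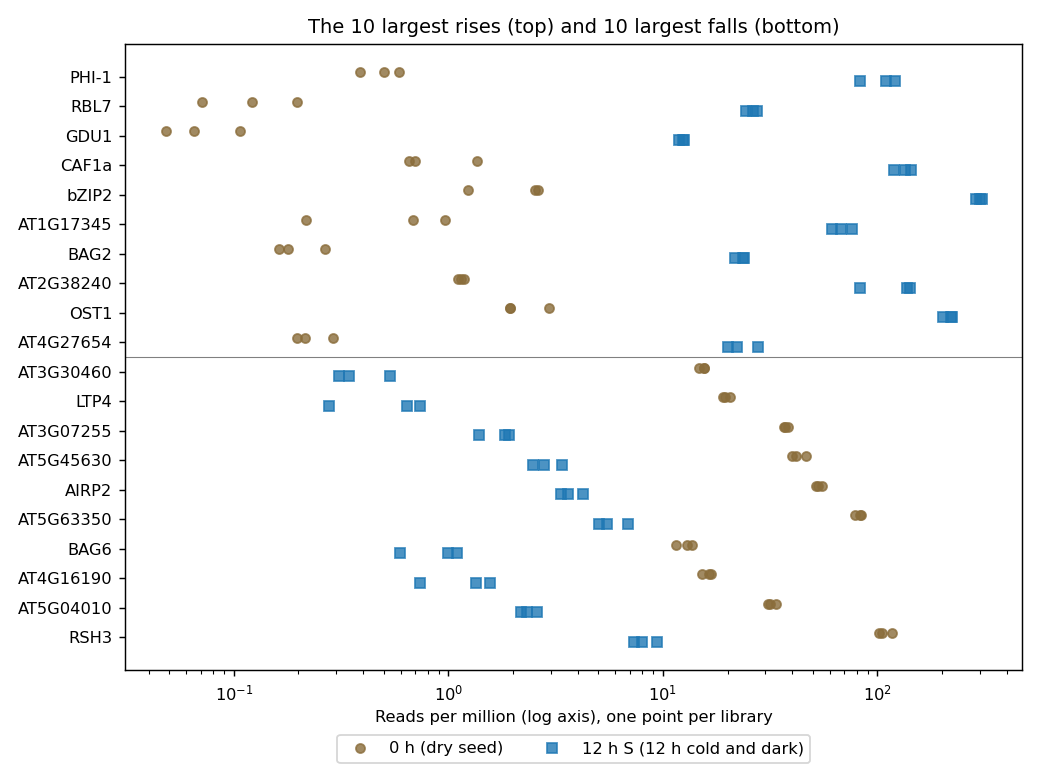
Level in CPM (log axis) of the 10 genes with the largest rise and the 10 with the largest fall, 1 point per library, 3 libraries at 0 h and 3 at 12 h S. Separate libraries at both time points were a condition of the choice. PHI-1 stood at 0.386 to 0.588 CPM at 0 h and at 83.2 to 121 CPM at 12 h S.

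AT3G07255, annotated as a nuclear transport factor and RNA recognition motif protein, and AT5G45630, annotated as a senescence regulator, had ABRE core letters in the promoter. The ABRE core ACGTG is the element through which bZIP factors such as ABI5 are known to act in ABA responses. The G-box CACGTG contains it on both strands, so each G-box counts as 2 matches to the core. Both genes are shown because they stood among the 10 largest falls with matches. AT3G07255 had 6 matches, all in 3 G-boxes, and AT5G45630 had 3 matches and no G-box. AT3G07255 went from 36.5, 38.1 and 36.9 CPM to 1.84, 1.92 and 1.39 CPM (-4.64 ± 0.11), and AT5G45630 from 41.7, 40.1 and 46.4 CPM to 3.39, 2.80 and 2.47 CPM (-4.08 ± 0.13). The 250 bases before the annotated start are printed 5′ to 3′ on the minus strand of the TAIR10.1 genome (RefSeq), at chr3:2308457-2308706 and chr5:18506383-18506632, with matches on either strand in capitals.
AT3G07255: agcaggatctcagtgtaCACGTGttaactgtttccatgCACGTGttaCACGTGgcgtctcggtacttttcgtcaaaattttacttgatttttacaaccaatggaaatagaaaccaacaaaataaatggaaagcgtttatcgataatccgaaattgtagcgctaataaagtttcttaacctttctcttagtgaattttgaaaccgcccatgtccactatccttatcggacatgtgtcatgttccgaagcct
AT5G45630: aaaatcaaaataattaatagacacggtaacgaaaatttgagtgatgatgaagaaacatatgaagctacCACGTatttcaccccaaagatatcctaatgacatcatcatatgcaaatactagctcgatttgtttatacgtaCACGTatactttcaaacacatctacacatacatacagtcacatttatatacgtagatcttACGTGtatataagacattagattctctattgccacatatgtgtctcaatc

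Over all 27278 promoters of this length, 22.9% held the ABRE core on either strand. The share was 29.9% among genes that fell over 2-fold, 22.6% among those that rose over 2-fold and 22.4% among those not called. The G-box was in 6.47% of all promoters, 11.4% of those of genes that fell over 2-fold and 6.94% of those of genes that rose over 2-fold. The ABRE core was not confined to lists that fell. Among the lists with more rises than falls whose promoters were counted, its share ran from 14.5% for ribosomal protein genes to 45.8% for jasmonate genes. It was 42.5% for core histones and 41.2% for touch and wound genes. Of 40 tested late embryogenesis abundant (LEA) genes, 27 (67.5%) held the core. LEA proteins protect desiccated cells, and 24 of these 40 genes fell and 7 rose, with a median log2 fold change of -0.74. Rises numbered 4 with 0 h replicates 1 and 2 left out, and 3 and 2 in the fits with 27 and 30 libraries. AT2G42560 went from 833, 784 and 738 CPM to 123, 93.8 and 121 CPM (-2.98 ± 0.12), whereas AT5G66780 went the other way, from 1720, 1730 and 1830 CPM to 3440, 3150 and 3370 CPM (0.73 ± 0.10).

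Of 9 seed storage protein genes 8 fell, with a median of -1.64. CRA1, a 12S globulin, went from 30500, 31700 and 31000 CPM to 12300, 10800 and 10700 CPM (-1.65 ± 0.12, adjusted p = 4e-08). The 2S albumin gene SESA5 was the exception, at 28600, 28200 and 29500 CPM at 0 h and 43000, 45700 and 53100 CPM at 12 h S (0.53 ± 0.13, adjusted p = 0.0019), a call that was lost with 0 h replicates 1 and 2 left out (log2 fold change 0.40, adjusted p = 0.093) and without either of them singly (adjusted p = 0.013 and 0.019), and in the fits with 27 or 30 libraries (0.25 and 0.28). Storage protein genes have near-identical copies, so reads may be divided among them. Of 6 oil body protein genes, OLEO4 (-1.25) and OLEO2 (-0.44) fell, with a list median of -0.25. Without 12 h S replicate 2, with DESeq2 and without the filter the counts were 2 higher and 3 lower, and they were 0 and 1 without replicate 3 or with 0 h replicates 1 and 2 left out. All 12 tested genes of oil mobilisation and the glyoxylate cycle, the route from stored oil to sugar, fell (median -1.11). ICL, isocitrate lyase, went from 7530, 7840 and 7620 CPM to 2950, 2380 and 2340 CPM (-1.77 ± 0.12), and the smallest fall was in the lipase gene SDP1 (-0.35 ± 0.08). With 0 h replicates 1 and 2 left out, 10 of the 12 fell.

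Genes of ABA synthesis and catabolism moved in both directions, 5 of 12 higher and 6 lower (median -0.32). CYP707A2, the main ABA 8′-hydroxylase of imbibed seed, rose from 27.8, 29.4 and 29.0 CPM to 347, 398 and 346 CPM (3.47 ± 0.09, adjusted p = 5.4e-12), and CYP707A3 rose by 3.87 ± 0.25 from at most 0.392 CPM. The synthesis gene NCED5 also rose, from 1.18, 1.21 and 1.25 CPM to 19.0, 16.9 and 17.2 CPM (3.67 ± 0.12). NCED9 rose by 0.99 ± 0.17, a call that was lost when the fit held 27 or 30 libraries. Among the falls, NCED6, known from the endosperm, fell by 1.45 ± 0.21, from a mean of 1.66 CPM to 0.696 CPM. At 48 h S the mean of NCED6 was 14.3 CPM, above that at 0 h. ABA1 fell by 1.00, and NCED3 went from 0.678 to 0.820 CPM to at most 3 reads in each library at 12 h S.

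In ABA signalling and dormancy 8 of 16 genes rose and 7 fell (median 0.26). DOG1, the regulator of seed dormancy, rose from 54.0, 55.0 and 51.8 CPM to 298, 246 and 264 CPM (2.14 ± 0.10, adjusted p = 6.9e-10), and stood at 273 CPM in the mean at 48 h S. ABI4 rose by 2.83 ± 0.16, and the receptor gene PYL6, from outside the list, went from 0.654, 0.607 and 0.314 CPM to 34.5, 39.0 and 33.9 CPM (5.95 ± 0.14). The clade A PP2C phosphatases, which restrain ABA signalling, divided. HAI3 rose from 19.2, 20.4 and 19.3 CPM to 115, 148 and 115 CPM (2.49 ± 0.10), while HAI1 went from 20.3, 20 and 20.2 CPM to 2.3, 2.1 and 2.11 CPM (-3.40 ± 0.10). ABI2 fell by 1.87 ± 0.12 and ABI1 rose by 0.96. The seed transcription factor ABI3 fell by 0.71 ± 0.07, a call that was lost in the fits with 27 or 30 libraries.

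ABI5, the bZIP factor that binds the ABRE, went from 341, 335 and 317 CPM to 274, 243 and 271 CPM, a small fall (-0.52 ± 0.09, adjusted p = 9.8e-05) whose groups did not overlap. It is printed because its own promoter held 7 ABRE core matches, in capitals, with 2 in each of its 3 G-boxes. The printed bases lie at chr2:15207637-15207886 on the minus strand of TAIR10.1.
ABI5: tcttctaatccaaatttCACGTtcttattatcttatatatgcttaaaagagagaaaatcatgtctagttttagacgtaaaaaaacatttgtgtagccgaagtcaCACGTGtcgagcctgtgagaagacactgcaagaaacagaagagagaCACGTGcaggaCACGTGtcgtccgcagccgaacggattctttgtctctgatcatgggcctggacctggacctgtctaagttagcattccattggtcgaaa

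Of 15 tested gibberellin genes 5 rose and 6 fell (median 0.01, or -0.19 without the filter on low counts). The DELLA repressor gene RGA1 rose from 11.3, 12.1 and 8.20 CPM to 132, 180 and 135 CPM (3.64 ± 0.13), and RGL2, the DELLA known for seed germination, rose by 1.51 ± 0.16. GA20OX3, a synthesis gene, rose from 8.01, 7.99 and 3.76 CPM to 72.3, 72.0 and 58.5 CPM (3.21 ± 0.19). SLY1, the F-box protein that removes DELLAs, rose by 1.47 ± 0.07. The receptor genes GID1A, GID1B and GID1C all fell (-0.65, -2.21 and -1.86), with the call for GID1B lost when 0 h replicates 1 and 2 were left out. GID1B was near the floor, with 10 to 16 reads in each library at 0 h and 3 to 7 at 12 h S. Its mean was 0.386 CPM at 0 h and 0.816 CPM at 48 h S. GA3OX1, the last step to active gibberellin that stratification is known to induce, had 4 to 13 reads in each library and was not tested.

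Most genes named for cold were lower after 12 h in the cold. Of 11 tested CBF regulators and cold-regulated genes 9 fell (median -1.56), and the regulators CBF4 (-0.25 ± 0.20, adjusted p = 0.28) and SR1, also known as CAMTA3 (-0.02 ± 0.08, adjusted p = 0.85), were not called. COR15A, a chloroplast membrane protectant, went from 5.49, 5.67 and 5.47 CPM to 0.754, 0.199 and 0.131 CPM (-4.15 ± 0.36, adjusted p = 2.4e-07). KIN1 and KIN2, which are near-identical copies, fell by 4.36 and 4.05, COR47 by 2.74 and LTI78 by 1.99, and LTI65 went from 522, 484 and 465 CPM to 193, 180 and 195 CPM (-1.56 ± 0.08). The CBF genes had too few reads for the test: at most 5 in each library for CBF1, at most 1 for DREB1A (CBF3), and 0 to 1 at 0 h against 7, 22 and 17 at 12 h S for CBF2. Without the filter on low counts CBF2 rose (log2 fold change 3.58, adjusted p = 1.38e-05; 0.0082 with DESeq2), and it also passed the filter and rose in the fits that left out any 1 library at 0 h or 12 h S replicate 1. With 0 h replicates 1 and 2 left out it was not called (adjusted p = 0.0153). DREB2A, a dehydration factor of the same family, went from 282, 291 and 276 CPM to 39.9, 25.7 and 34 CPM (-3.27 ± 0.15), and it overlaps AT5G05420.

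The COR15A promoter is shown because it carries the CRT/DRE core CCGAC, the site of CBF proteins, 2 times. It also holds 1 G-box, which counts as 2 matches to the ABRE core. Of all promoters 12.0% held the CRT/DRE core, against 4 of the 11 cold genes tested. It lies at chr2:17712331-17712580 on the minus strand of TAIR10.1, with both motifs in capitals.
COR15A: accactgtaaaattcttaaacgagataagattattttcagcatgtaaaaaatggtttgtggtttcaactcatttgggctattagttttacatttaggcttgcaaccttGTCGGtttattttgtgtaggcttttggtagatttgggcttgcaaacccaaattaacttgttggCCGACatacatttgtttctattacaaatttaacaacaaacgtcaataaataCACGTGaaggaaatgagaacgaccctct

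In contrast, 12 of 17 tested touch, wound and stress early-response genes rose and 3 fell (median 1.68). CML38, a calmodulin-like protein, rose from 0.850, 0.749 and 0.362 CPM to 31.4, 30 and 34.3 CPM (5.48 ± 0.17, adjusted p = 2.3e-11), ERF5 by 4.24 ± 0.11, RHL41 (ZAT12) by 3.97 ± 0.14 and the touch gene TCH4 by 1.68 ± 0.13. WRKY33, a defence regulator, went the other way (-1.15 ± 0.14). In the wider family 16 of 30 WRKY genes rose and 3 fell (median 0.51), and 14 rose and 5 fell without 0 h replicate 3. WRKY11 rose from 5.85, 6.00 and 4.15 CPM to 126, 128 and 148 CPM (4.48 ± 0.12) and was back at 6.68 CPM at 48 h S.

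WRKY proteins bind the W-box, written here as TTGAC. It was in 44.9% of all promoters and in 12 of the 17 genes of the touch and wound list. By direction the shares hardly differed, at 44.3% for genes that rose over 2-fold, 44.9% for those that fell over 2-fold and 45.0% for those not called. The WRKY11 promoter is printed as that of a WRKY gene with 3 matches, in capitals, at chr4:15291935-15292184 on the minus strand of TAIR10.1.
WRKY11: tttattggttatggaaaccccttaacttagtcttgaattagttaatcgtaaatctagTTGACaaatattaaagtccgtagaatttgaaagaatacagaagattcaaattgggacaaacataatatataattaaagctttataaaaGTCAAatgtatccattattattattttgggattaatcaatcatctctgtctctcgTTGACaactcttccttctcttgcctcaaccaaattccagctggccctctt

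Genes of jasmonate, the wound hormone, rose in 13 and fell in 4 of 24 tested (median 0.79). The rises included genes that inactivate the hormone or repress its responses. CYP94C1, which oxidises jasmonoyl-isoleucine, rose from 0.261, 0.214 and 0.0724 CPM to 11.7, 14.6 and 13.4 CPM (6.06 ± 0.21), and the oxygenase genes AT2G38240 and AT5G05600, of a group known to hydroxylate jasmonic acid, by 6.51 and 3.16. The repressor genes JAZ8 and JAZ1 rose by 2.47 and 2.3, while the synthesis gene LOX3 fell by 1.36. MYC2 was listed at 0 reads in all 6 libraries and overlaps AT1G32630.

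Low-oxygen response genes had the highest median of the lists described, with 8 of 11 tested higher, 2 lower and a median of 3.35. ERF71 and ERF73, group VII ethylene response factors, rose from 0.425, 0.393 and 0.458 CPM to 18.9, 22.1 and 18.8 CPM (5.33 ± 0.13) and from 4.61, 6.10 and 5.60 CPM to 103, 115 and 112 CPM (4.14 ± 0.11), although ERF73 overlaps AT1G72370. LBD41 rose by 3.40, the plant cysteine oxidase genes AT5G39890 and AT5G15120 by 3.35 and 2.50, and the pyruvate decarboxylase gene AT4G33070 by 3.45. HB1, the hypoxia-induced hemoglobin, rose from 8.20, 9.71 and 2.82 CPM to 169, 220 and 171 CPM (4.62 ± 0.28), with 0 h replicate 3 the lowest. The fermentation enzyme ADH1 was at 621, 673 and 650 CPM at 0 h and 925, 803 and 823 CPM at 12 h S and was not called (0.20 ± 0.10, adjusted p = 0.067). PDC2 fell by 0.50 and SUS1 by 2.94. The counts for this list were the same with 0 h replicates 1 and 2 left out.

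**Figure D2:**
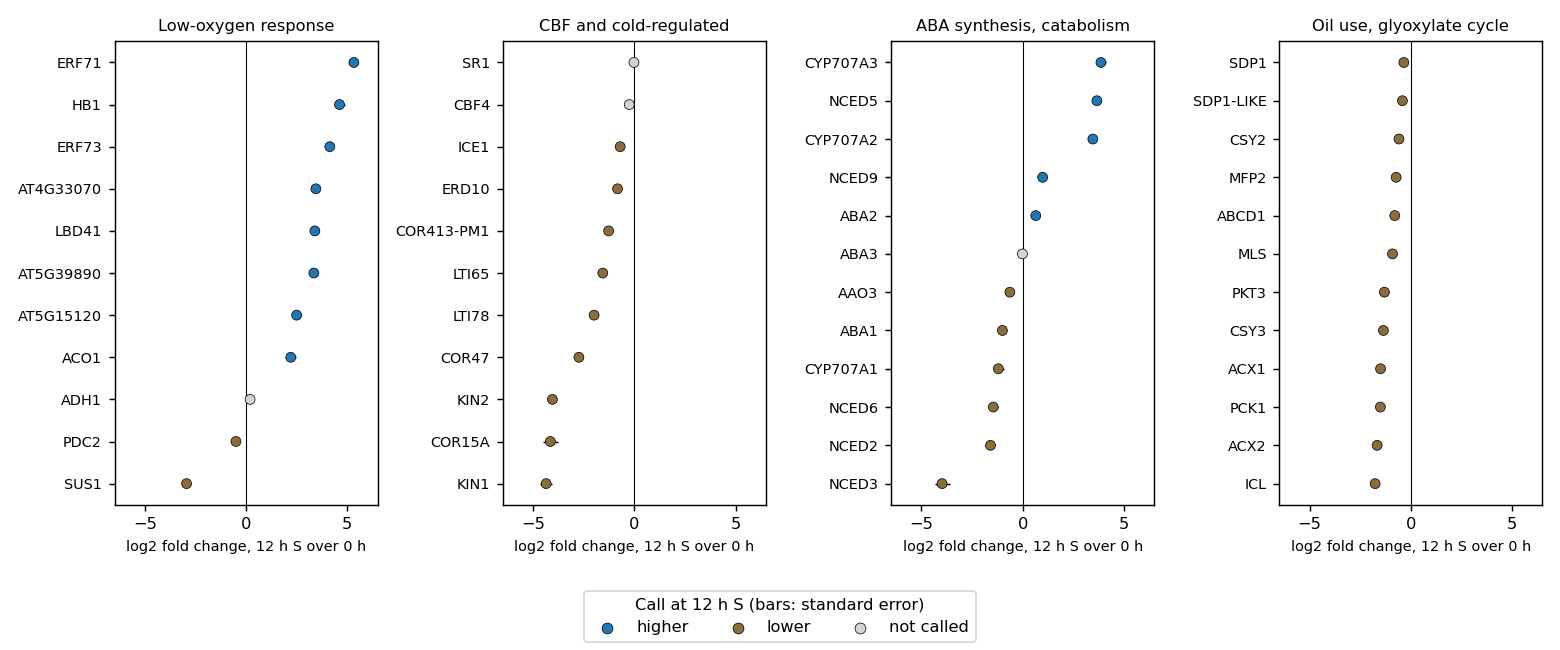
Log2 fold change from 0 h to 12 h S of each tested gene in 4 lists, with bars of 1 SE and the call at an adjusted p of 0.01 by colour. Of the low-oxygen genes 8 of 11 rose, 9 of 11 cold genes and 12 of 12 oil mobilisation genes fell, and the ABA metabolism genes lay on both sides of 0.

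Of 18 tested Dof genes 13 rose and CDF2 alone fell (-0.71), with a median of 1.47. Genes that are low at 0 h pass the filter only where they are high at 12 h S, and without the filter the median was 0.75 over 28 Dof genes, 0.14 over 65 WRKY genes, 0.45 over 98 AP2/ERF genes and 0.27 over 80 homeobox genes. DAG1, a known repressor of germination, rose from 0.621, 0.892 and 0.820 CPM to 10.4, 13.3 and 11.7 CPM (3.72 ± 0.15), and AT4G24060 by 3.88. With the filter, 31 of 59 AP2/ERF genes rose and 11 fell (median 0.99), and 28 of 52 homeobox genes rose and 7 fell (0.58). The homeobox genes WOX11 and WOX12, known for founding adventitious roots, rose from 0.490, 1.03 and 0.338 CPM to 29.5, 41.8 and 37.9 CPM (5.76 ± 0.21) and from 2.61, 2.96 and 2.60 CPM to 72.3, 82.8 and 78.6 CPM (4.65 ± 0.09). NAC genes moved both ways, 17 of 50 higher and 15 lower (0.15), with NAC032 falling from 296, 302 and 313 CPM to 49.2, 44.5 and 40.3 CPM (-2.96 ± 0.10). So did bZIP genes, 16 of 39 higher and 15 lower, with a median of -0.14 that became 0.05 with library size alone.

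Core histone genes rose in 33 of 41 and fell in 2 (median 1.99), and their share of all reads went from 0.191% ± 0.0035 to 0.556% ± 0.032 (SD, n = 3). AT3G53730, a histone gene, rose from 18.4, 19.8 and 17.1 CPM to 263, 311 and 277 CPM (3.75 ± 0.08), and HTA6, an H2A gene, from 5.13, 5.25 and 3.14 CPM to 56.6, 63.6 and 55.5 CPM (3.54 ± 0.13). AT1G08170 fell by 1.3 and HTA11 by 1.24, and 1 gene of the list fell with 0 h replicates 1 and 2 left out. Histone genes include near-identical copies, so the division of reads among members is uncertain. The HTA6 promoter is shown for the histone octamer CGCGGATC, the motif known from plant histone promoters. It was in 37 of all promoters (0.136%) and in 9 of 40 histone promoters, all of genes that rose. The match is in capitals at chr5:24116221-24116470 on the minus strand of TAIR10.1.
HTA6: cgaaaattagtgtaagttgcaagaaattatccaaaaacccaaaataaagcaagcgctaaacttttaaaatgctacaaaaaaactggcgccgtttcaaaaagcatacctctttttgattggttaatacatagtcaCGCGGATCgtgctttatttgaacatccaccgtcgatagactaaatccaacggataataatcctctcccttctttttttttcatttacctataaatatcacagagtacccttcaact

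Genes of protein synthesis rose by less. Of 62 ribosomal protein genes 38 rose and 8 fell, with a median of 0.45 and the largest rise in AT2G32220 (1.82 ± 0.09, from 14.1, 15.7 and 12.2 CPM to 54.0, 62.3 and 52.7 CPM). In the fit of all 30 libraries 14 rose and 4 fell, and with 0 h replicates 1 and 2 left out 29 rose and 5 fell. The site II element (TGGGCC or TGGGCT) was in 45 of their 62 promoters (72.6%) and in 19.2% of all. Of 22 nucleolar ribosome biogenesis factors 8 were higher and 5 lower, with a median of 0.00 (0.19 with library size alone), and 5 were higher and 5 lower with 0 h replicates 1 and 2 left out or in the fit of 30 libraries. Pentatricopeptide repeat genes, which act on organelle RNA, rose in 102 of 245 and fell in 45 (0.40), and 69 rose and 26 fell with 0 h replicates 1 and 2 left out. In mRNA decay, deadenylation genes such as CAF1a, CAF1b (1.28) and AHG2 (1.23) rose, while the decapping genes DCP1 (-1.79), VCS (-1.28) and DCP2 (-0.92) and the exoribonuclease gene XRN4 (-0.99) fell. In all, 7 of 12 were higher and 4 lower.

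In DNA repair 5 of 16 genes rose and 7 fell (median -0.36), with 5 each way for library size alone, and the summed share of reads went from 0.165% to 0.0553%. The poly(ADP-ribose) polymerase gene AT5G22470 went from 1680, 1530 and 1450 CPM to 476, 405 and 478 CPM (-1.96 ± 0.10), while KU70, of double-strand break repair, rose by 0.78. With 0 h replicates 1 and 2 left out 1 rose and 5 fell. Of 16 heat shock factors and chaperones 3 rose and 8 fell (-0.52), among them HSP70 (-2.44), the seed factor HSFA9 (-2.05) and HSP101 (-1.51), and the rises were not called in the fits with 27 or 30 libraries. The summed share of reads of these 16 genes went from 0.911% to 1.03%. Proteasome subunit genes rose in 9 of 29 and fell in 14 (-0.30), or 11 and 12 with library size alone and 5 and 10 in the fit of 30 libraries, and their share went from 0.225% to 0.253%. Mitochondrial import genes rose in 10 of 17 and fell in 6 (6 and 4 with 0 h replicates 1 and 2 left out), while their share went from 0.248% to 0.156%. For each of these 4 shares the exact permutation p was 0.1, the smallest possible.

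Counts for both lists of wall-loosening genes depended on the libraries at 0 h. Of 13 tested expansins 2 rose and 3 fell. With 0 h replicates 1 and 2 left out 6 of 16 rose and 1 fell, and without replicate 3 alone 5 fell. EXPA10 was at 14.8, 21.2 and 2.32 CPM at 0 h and 32.0, 40.3 and 24.8 CPM at 12 h S (1.21 ± 0.44, adjusted p = 0.023), with a mean of 1.76 CPM at H and 1540 CPM at 48 h S. EXPA2, known from the endosperm, fell by 2.45 ± 0.61 with all libraries and lost that call without those 2 replicates (adjusted p = 0.66), without either of them singly and without 12 h S replicate 3. Of 19 tested xyloglucan endotransglucosylase genes 5 rose and 4 fell. Without 0 h replicate 3, 5 of 21 rose and 10 fell, and the list median turned from -0.62 to 0.46 with 0 h replicates 1 and 2 left out. XTH25, chosen after its values were seen, went from 6030, 5890 and 6130 CPM to 1280, 1140 and 1050 CPM (-2.57 ± 0.11). Markers of other tissues moved too, with 8 of 9 leaf markers lower. All 4 tested endosperm markers were lower, among them EXPA2 with the lost calls just given. The 5 endosperm markers of the list summed to 14100 CPM at H, 4880 CPM at 0 h and 1660 CPM at 12 h S, so their sum was already falling before imbibition. EXPA2 and NCED6 made up little of that sum, with means of 3.63 and 1.66 CPM at 0 h. Seed coat markers summed to at most 1.5 CPM in any library of both groups. The part of these in other results was not tested.

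**Figure D3:**
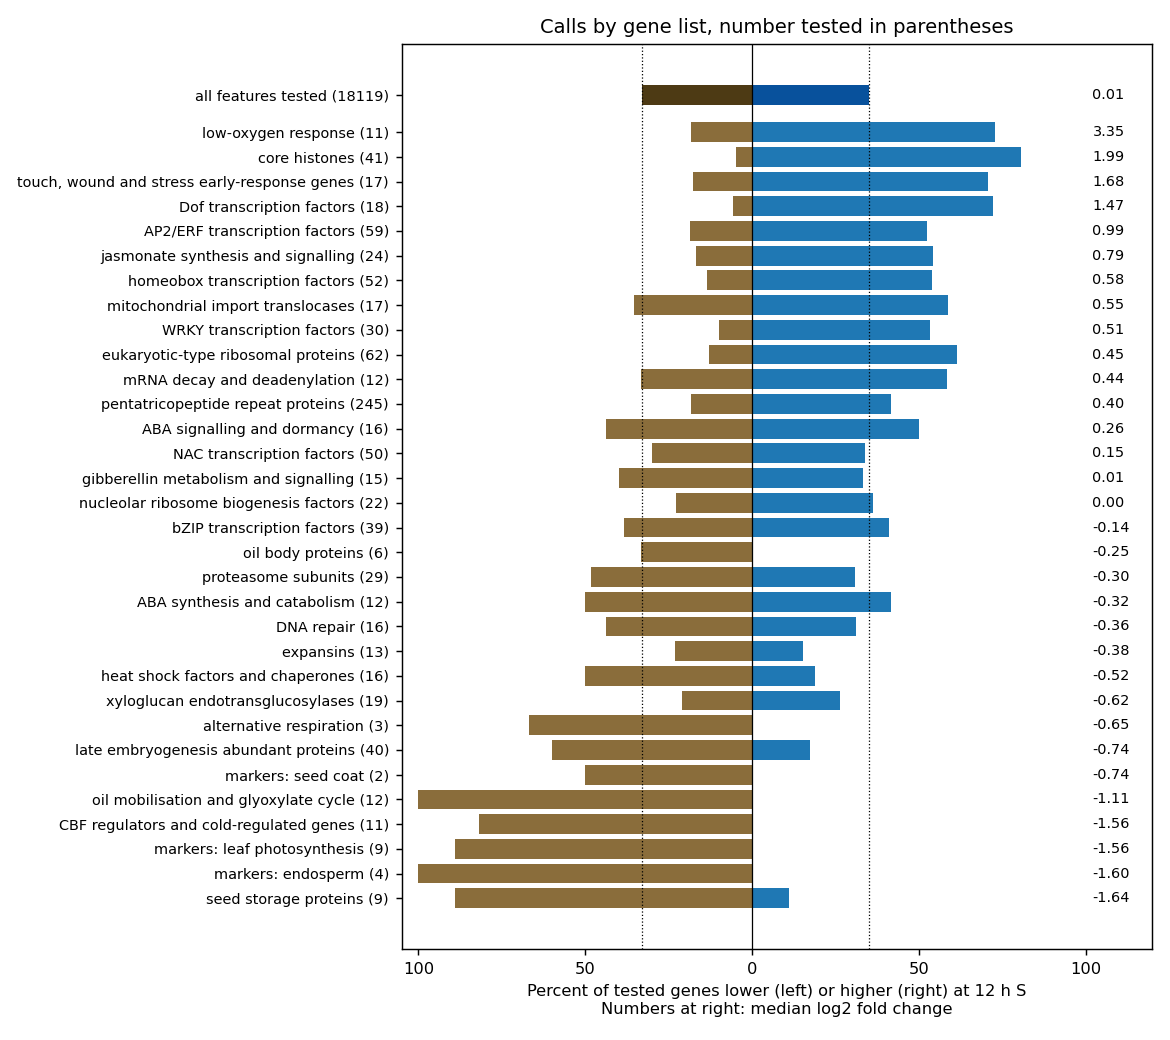
Percent of the tested genes in each list that were lower (left) or higher (right) at 12 h S, with the median log2 fold change at the right edge and dotted lines at the values for all 18119 features, 32.9% and 35.0%. Core histones, low-oxygen, touch and Dof genes lie to the right, and storage protein, oil mobilisation, cold and LEA genes to the left.

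A gene's level at harvest, which comes from libraries outside the comparison, and its length both went with the direction of change. Among protein-coding genes, 62.0% of the decile with the highest CPM at H fell and 17.5% rose. In the lowest decile 38.3% rose and 11.5% fell, although genes that low passed the filter chiefly through libraries in which they were higher. Of the shortest quintile of genes (up to 1180 bp of summed exons) 49.8% rose and 20.5% fell, and of the longest quintile (from 2620 bp) 18.9% rose and 49.3% fell. Within the third of genes with the highest level at H, the longest quintile fell in 73.3% and rose in 9.59%, against 30.3% and 47.7% for the shortest quintile. Within the third with the lowest level at H the falls lay closer, at 20.5% for the longest and 15.1% for the shortest quintile, with rises of 26.5% and 45.8%. Genes of 1 exon rose in 44.3% and those of 9 or more in 22.2%. Whether RNA integrity or fragment length differed between the libraries was not tested.

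**Figure D4:**
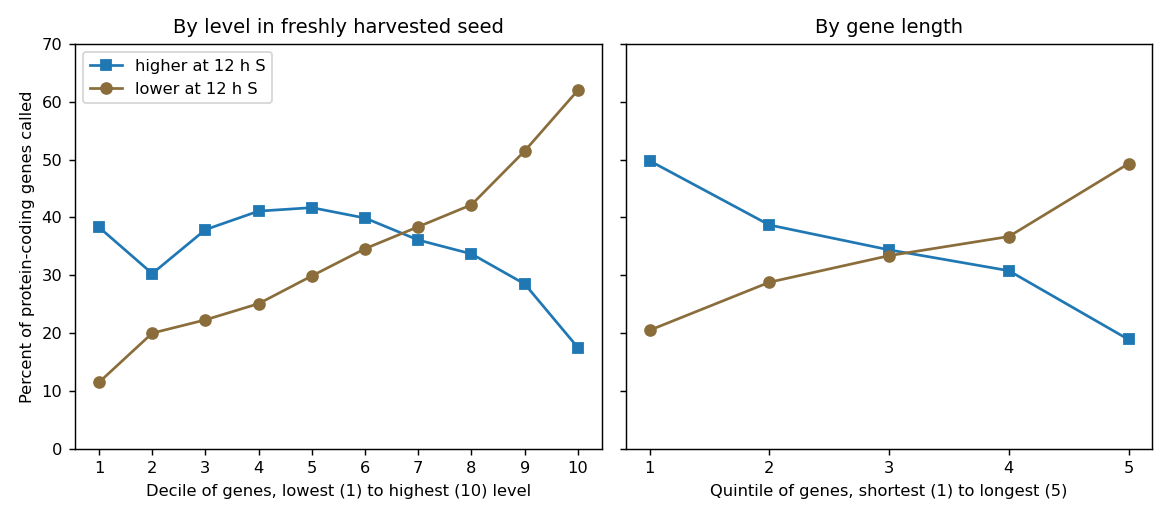
Percent of protein-coding genes that rose or fell from 0 h to 12 h S, by decile of the level in freshly harvested seed (left) and by quintile of gene length (right). Falls go from 11.5% in the lowest decile to 62.0% in the highest, and from 20.5% in the shortest quintile to 49.3% in the longest.

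At most 3 reads in each library at 0 h and at least 1 CPM in each at 12 h S were found for 29 features. AATP1, an AAA-ATPase gene, had no read at 0 h and 1.77, 3.44 and 3.59 CPM at 12 h S, at least 31.7-fold higher against a floor of 3 reads per library. CUC3, the NAC gene of organ boundaries, had 1 read in the 0 h libraries together and 1.84, 1.85 and 1.98 CPM at 12 h S. In the other direction 7 features had at least 0.5 CPM in each library at 0 h and at most 3 reads in each at 12 h S, among them NCED3, VSP2, CYP71A12 and A7. A7, a lipid transfer protein gene, went from 0.883, 0.821 and 1.64 CPM to no read, at least 19.1-fold lower. These sets rest on 0 h and 12 h S alone, and NCED3 and CYP71A12 stood at 0.702 and 1.02 CPM at H.

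The ratio of the main isoforms of a gene was compared from the authors' transcript values, which are corrected for length. Of 7721 genes whose 2 most abundant isoforms both had a mean above 0.1, 1025 (13.3%) differed in ratio at an adjusted p below 0.01 (limma), with isoform 1, the more abundant over the 6 libraries, taking a larger share at 12 h S in 436 and a smaller share in 589. The more abundant isoform changed in every library for 231 of them and for 398 of all 7721 genes compared. The total count was also tested for 1016 of the called genes. It was not called for 236 of these, against 5828 of all 18119 features tested. When 1 library was left out, 441 to 612 were called.

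PHYB, the red-light receptor gene of germination, had isoform 1 at 84.8%, 88.4% and 85.2% of both isoforms at 0 h and at 20.2%, 17.6% and 26.6% at 12 h S (log2 ratio difference -4.31 ± 0.27, adjusted p = 0.00028). Every library switched. SR45, a splicing factor gene, had 57.9%, 55.5% and 60.1% against 58.7%, 79.9% and 60% and was not called (0.54 ± 0.41, adjusted p = 0.38). The largest moves towards isoform 1 were in AT1G30590, an RRN3-type initiation factor of RNA polymerase I (16.5% to 99.8%), the LAMMER kinase gene FC2 (20.4% to 99.6%) and JMJD5 (21.0% to 98.6%). The largest moves away were in the RING/U-box gene AT2G37150 (95.8% to 16.5%), the RNA-binding protein gene AT2G44710 (77.4% to 5.77%) and AT4G01995 (93.0% to 16.8%). CIPK3, a kinase of calcium signalling, went from 38.3% ± 2.4 to 78.7% ± 0.93 (SD, n = 3; 2.57 ± 0.21, adjusted p = 0.00056).

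**Figure D5:**
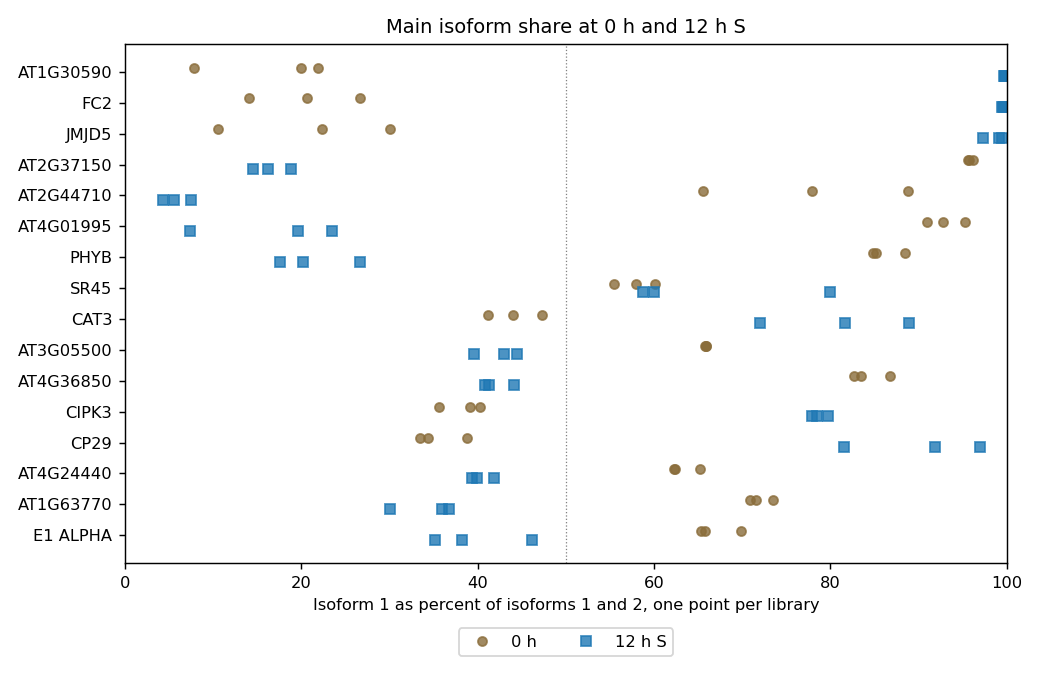
Isoform 1 as a percent of the main 2 isoforms in each library at 0 h and 12 h S for 16 genes, with a dotted line at 50%. In PHYB the share lies between 84.8% and 88.4% at 0 h and between 17.6% and 26.6% at 12 h S, while the SR45 libraries overlap.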

How the data were processed

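The gene table held deposited counts per gene, which the authors made with Trim Galore 0.4.2, HISAT2 2.0.5 on TAIR10 and featureCounts 1.5.1 with the Araport11 annotation. The treatment of reads matching several places was not given in the sources used here. The transcript table held a deposited signal per isoform, which the authors derived with Salmon 0.7.2 and sleuth 0.28.1 as TPM divided by a size factor per library, so its depth per isoform is unknown. The labels state selection of polyadenylated RNA but name a total RNA kit, and libraries were unstranded. The deposited log2 table and the table of sleuth p-values and q-values by the authors hold their own results and were not used.

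Counts of the 6 libraries were fitted with edgeR 4.0.16 (R 4.3.3; TMM, filterByExpr with a minimum count of 10, quasi-likelihood F-test, two-sided). Standard errors are the log2 fold change over the root of F, and p-values were adjusted by Benjamini-Hochberg over all features tested. CPM are per total reads without TMM. The log2 ratio of the 2 main isoforms with a pseudocount of 0.1 was tested with limma 3.58.1, a scale that understates changes of low isoforms. Shares of reads were compared by exact permutation. DESeq2 1.42.0 was an alternative. Fits were tested on simulated data.

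Named genes were annotated, called in every leave-one-out fit and in the fit of 30 libraries, with no overlap in CPM between the libraries of both groups, and at 10 CPM or more at the higher time point, 10 each way, beside the largest movers of each list and key genes of the hormone pathways. Members and lists were chosen with earlier results of these data known. The WRKY, AP2/ERF, Dof, NAC, bZIP and homeobox lists, the histone octamer, the promoters of COR15A and HTA6, and the genes PYL6, DREB2A, RSH2, WOX12 and XTH25 were added after values had been seen. Symbols and promoters are from RefSeq (TAIR10.1), which matched 99.237% of annotated genes, 99.506% of these at the same coordinates.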

Additional observations from a re-analysis of the deposited data

How the results depend on the processing

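The counts of genes higher at 12 h S than at 0 h and of genes lower at 12 h S than at 0 h stayed within 1.5 times of 6334 and 5957 in every alternative except a test against a 2-fold change (glmTreat), which gave 2184 and 1514. Leaving out 1 library gave 5797 to 6461 higher and 5138 to 5860 lower. DESeq2 gave 6060 and 5380. Leaving out 0 h replicates 1 and 2, chosen after seeing the data, gave 4735 and 4473, and the lone library at 0 h was then assumed to vary like those at 12 h S. The count of genes whose isoform ratio differs between 0 h and 12 h S was 1025, and it moved to 441 to 612 when 1 library was left out and to 2097 at an adjusted p of 0.05. Whether fewer libraries alone bring the lower number was not tested. Of the named genes under all alternatives, 1182 of 1232 values kept their call and 50 lost it, and of the named isoform ratios 144 of 176 kept it, with no change of direction. The genes with the largest rises and falls had been chosen for keeping their call without each library in turn and in the fit of all libraries. Part of the values for named genes was therefore fixed by the choice, and the others came chiefly from the largest movers of each list. The share kept cannot tell how robust calls are among genes at large. CAT3, AT3G05500, CP29, AT4G24440 and E1 ALPHA lost the isoform call without 1 library in most choices of that library (adjusted p 0.013 to 0.024). Of the list counts 896 of 1024 stayed within 1.5 times.

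The replicate numbers shared by both time points did not pair the libraries: the correlations of their deviations from the group means were -0.063, 0.158 and 0.129, and not every library correlated best with its own number. With a replicate block 6301 genes were higher, 5920 lower and 411 isoform ratios called.

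Replicates differed by more than sampling noise (chi-square per degree of freedom 2.836 to 7.401 at 0 h and 16.41 to 40.829 at 12 h S). Depth left CBF1, CBF3 and GA3OX1 untested in the main fit, so a change there was neither shown nor excluded by it. Without the filter on low counts all 16 genes of the cold list were tested, with 1 higher and 10 lower. CBF2 was tested in 9 alternatives and rose in 8 of them (adjusted p = 0.0153 in the other, with 0 h replicates 1 and 2 left out).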

Other observations

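Genes of chlorophyll breakdown were among the falls and lie outside the lists described. The STAY-GREEN-like gene AT4G11910 went from 1360, 1360 and 1400 CPM to 141, 94.1 and 127 CPM (log2 fold change -3.69 ± 0.16, edgeR), NYE1 from 1030, 1020 and 1050 CPM to 192, 142 and 169 CPM (-2.81 ± 0.13) and NYC1 from 218, 170 and 182 CPM to 38.4, 32 and 34 CPM (-2.63 ± 0.11). STAY-GREEN proteins and NYC1, a chlorophyll b reductase, are known from the degreening of leaves and maturing seed. All had still lower means at 48 h S (66.8, 60.9 and 10.9 CPM). These genes were chosen after their values were seen.

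Several genes best known from pollen were present in dry seed and fell. The pectin methylesterase gene VGDH1 had a mean of 40 CPM at H, 14.0, 14.2 and 13.2 CPM at 0 h and 1.86, 2.71 and 2.21 CPM at 12 h S (-2.80 ± 0.11). PGA4, a polygalacturonase gene, had 87.4 CPM at H, 44.8, 44.6 and 44.1 CPM at 0 h and 4.01, 7.63 and 7.78 CPM at 12 h S (-2.97 ± 0.17), and sks13 fell by 2.78 ± 0.13. Both groups were separate for each. The source of these transcripts was not tested, and the genes were chosen after their values were seen.

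The uncharacterised gene AT1G32920 rose from 10.9, 11.6 and 9.57 CPM to 967, 986 and 1020 CPM (6.35 ± 0.10) and stood at 135 CPM in the mean at 48 h S. RAS1, known for natural variation in the response to ABA and salt, rose from 3.11, 2.46 and 2.15 CPM to 131, 143 and 171 CPM (5.67 ± 0.14) and was back at 2.12 CPM at 48 h S. The SAUR-like gene AT1G72430 rose by 5.45. These were likewise chosen for their values.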
